A study of Mus musculus with 8 samples.

Results

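The cytosolic ribosomal proteins, the protein components of the ribosomes that translate messenger RNA outside the mitochondria, were followed in Raptor-deficient and wild-type regulatory T cells. Members were all genes with a probe set of their own whose symbol starts with Rpl or Rps and a digit, or is Rplp0, Rplp1, Rplp2 or Rpsa. Kinase genes named Rps6k, Rps19bp1 and pseudogenes were left out. This gave 71 genes of the 17097 on the array, read by 134 of the 28898 probe sets that carry a single gene name. Of these genes, 46 encode proteins of the large subunit and 25 of the small subunit, and 6 are paralogs by their symbols (Rpl22l1, Rpl39l, Rpl3l, Rpl7l1, Rpl36al and Rps27l). Each gene was represented by its probe set with the highest mean over the 8 arrays. A further 15 probe sets name a ribosomal protein gene beside another gene and were not used, so some family members, Rpl5 and Rps3 among them, were not analysed here.

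The knockout group (RaptorKO) held 4 samples from CD4(cre)Raptor(fl/fl) mice, in which a Cre recombinase under Cd4 control deletes the floxed gene Rptor. The wild-type group (WT) held 4 samples, and the labels give C57Bl/6J as the background of both groups. All samples were CD4+CD25+ cells sorted from spleen and peripheral lymph nodes, used without treatment and hybridised to 1 single-channel array each. Neither the age of the mice nor their number is in the labels, so the samples may share mice, and the p-values cover only the sample-to-sample spread, part of which may be technical. Cd4-Cre acts in every T cell that passes through a CD4-expressing stage in the thymus, so conventional T cells of these mice lack the gene as well as the regulatory ones.

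Ribosomal protein mRNAs are among the most abundant in a cell, and most begin with an uninterrupted stretch of C and U bases called a terminal oligopyrimidine (TOP) motif. The kinase complex mTORC1, whose scaffold Raptor is the product of Rptor, promotes the translation of TOP mRNAs, in part by restraining the RNA-binding protein Larp1. It also activates the S6 kinases, whose name-giving substrate is the small subunit protein Rps6. An array measures the amount of an mRNA, not its translation.

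The starts of 8 members are shown because the TOP motif is read at the transcription start, and because they span genes whose groups did not overlap and paralogs with lower means in RaptorKO. Each window covers 15 bases before and 15 bases from the annotated start on the gene's strand, taken from RefSeq in build GRCm38.p6, and capitals mark the longest unbroken run of C and T in it.
Rpl12: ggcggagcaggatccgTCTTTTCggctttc
Rpl13a: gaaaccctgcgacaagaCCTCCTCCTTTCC
Rpl27a: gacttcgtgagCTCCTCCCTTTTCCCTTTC
Rplp0: gTCTTCgggtttcgaggaccgcctggttct
Rps6: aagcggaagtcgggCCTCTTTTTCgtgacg
Rps18: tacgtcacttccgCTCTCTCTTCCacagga
Rpl22l1: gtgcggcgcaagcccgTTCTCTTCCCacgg
Rpl7l1: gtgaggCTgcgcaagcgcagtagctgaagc
On the plus strand lie Rpl12 (chr2:32961697-32961726), Rpl27a (chr7:109519180-109519209), Rplp0 (chr5:115559452-115559481) and Rpl22l1 (chr3:28805493-28805522). On the minus strand lie Rpl13a (chr7:45128731-45128760), Rps6 (chr4:86857353-86857382), Rps18 (chr17:33955651-33955680) and Rpl7l1 (chr17:46782642-46782671). The longest run had 19 bases in Rpl27a, 13 in Rpl13a, 11 in Rps18, 10 in Rps6 and in Rpl22l1, 7 in Rpl12, 5 in Rplp0 and 2 in Rpl7l1. Windows not shown here, of other members whose groups did not overlap, had both long and short runs. Their longest run had 18 bases in Rpl35, 5 in Rpl36a, 4 in Rps4x and 3 in Rps15 and in Rpl23.

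A promoter entry was found for 57 members. A run of 8 or more C or T on the gene's strand, lying between 20 bases before and 50 bases after the annotated start, was present in 44 of them (77.2%), against 28.5% of all 27025 genes with an entry. A C at the annotated start itself followed by 4 C or T was present in 11 members (19.3%) and in 3.01% of all genes. The sequence CCGGAAG, a binding motif of ETS-family factors, occurred on either strand of the promoter entries in 25 members (43.9%) and in 9.93% of all genes. The sequence AAGATGG, part of the motif of the factor YY1, occurred in 9 members (15.8%) and in 7.28% of all genes. These are matches of letters, and the annotated start may differ from the start used in these cells.

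The targeted gene came out as follows. Rptor had log2 intensities of 6.63, 6.47, 6.50 and 6.95 in RaptorKO 1 to 4, against 6.83, 6.85, 7.03 and 6.75 in WT 1 to 4. The highest RaptorKO array lay within the WT range, and the difference of -0.23 (SE 0.12, limma adjusted p = 0.492) did not pass the test. With all probe sets of each gene averaged, the Rptor difference was -0.32 (limma adjusted p = 0.119) and did not pass either. Whether these probes fall inside the floxed exons is not stated, so Rptor is a weak check of the labels here. The mean of 7 regulatory T cell markers, Foxp3 among them, was 10.60 to 10.73 in RaptorKO and 10.62 to 10.74 in WT. Single markers in this mean went opposite ways. The differences were -0.32 for Ctla4 and -0.22 for Cd4 but 0.21 for Ikzf2, each with groups apart. Of the 7, 4 were positive and 0 passed the adjusted limma test. An unadjusted limma p under 0.05 was found in 3 of the 7, against 13% of all genes tested. Over the 11 listed myeloid markers the mean was 6.48 to 6.90 in RaptorKO and 6.08 to 6.60 in WT. Of the 11, 8 passed the filter on dim probe sets, and 7 of those 8 had a higher mean in RaptorKO. The 8 had a median difference of 0.37, and 0 passed the adjusted limma test. At an unadjusted p under 0.05, 3 were counted, against 13% of all genes tested. These were Lyz2 (difference 0.61), Tyrobp (0.59) and Fcer1g (0.49). The defining myeloid genes Adgre1, Cd14 and Itgam stayed under that filter. B cell markers averaged 5.72 to 6.16 in RaptorKO and 5.15 to 6.37 in WT, and CD8 T and NK cell markers 5.77 to 6.25 in RaptorKO and 5.33 to 6.65 in WT. Members of that last list went opposite ways, with differences of -1.03 for Cd8a and -0.77 for Cd8b1 but 0.87 for Nkg7, whose groups were apart; 4 of the 6 were tested and 0 passed the adjusted test (3 at an unadjusted p under 0.05). The part of other cell types in the results was not tested. In sorted bulk samples, fewer cells of a type and less RNA per cell cannot be told apart. Array medians lay between 5.21 and 5.29, and arrays of the same group correlated at 0.972 to 0.990. Replicates 1 and 2 differ from replicates 3 and 4 in sex-linked transcripts in both genotypes, so results are also given within each of these sets; Xist, for example, read 11.18, 11.15, 5.28 and 5.62 in RaptorKO 1 to 4, against 10.90, 10.88, 5.58 and 5.04 in WT 1 to 4.

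Ribosomal protein mRNAs stood slightly higher in RaptorKO than in WT as a family, with no single member passing the test. Of the 70 members that passed the filter, 59 had a higher mean in RaptorKO, 36 of 45 in the large subunit and 23 of 25 in the small subunit. That is 84.3% of the members, against 47.6% of all 11413 genes tested. All members were read on the same 8 arrays, and RaptorKO 2 gave the highest value of 43 of them. Counts of members are therefore not counts of independent observations, and the comparison is of 4 arrays with 4. The median difference, RaptorKO minus WT, was 0.06 on the log2 scale over the members and -0.01 over all genes tested, and the members ran from -0.17 (Rpl7l1) to 0.28 (Rpl12). Rpl3l, a paralog known from heart and skeletal muscle, was the member that did not pass the filter, with log2 intensities of 3.74, 3.79, 3.91 and 3.996 in RaptorKO and 3.77, 3.65, 3.94 and 3.74 in WT.

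No member passed a Benjamini-Hochberg adjusted p of 0.05 in limma, while 224 of the 11413 genes did (1.96%), 94 of them higher and 130 lower in RaptorKO. That split was not stable: it was 85 higher and 62 lower without RaptorKO 3, 64 and 61 without WT 1, 64 and 58 without WT 3, 53 and 48 without WT 4, and 81 and 176 without RaptorKO 2. At an unadjusted p under 0.05, 3 of 70 members were counted (Rpl12, Rpl36a and Rpl13a, 4.29%), fewer than the 13% of all genes tested. All 3 were higher in RaptorKO, where the share of all genes was 5.55%. In 22 of 70 members every RaptorKO array read above every WT array (31.4%), against 3.73% of all genes. In 0 members did every RaptorKO array read below every WT array, against 5.09% of all genes. limma draws each gene's spread toward a common prior, whose SD was 0.17 here, whereas the median SD within a group was 0.05 over the members and 0.18 over all genes tested.

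**Figure D1:**
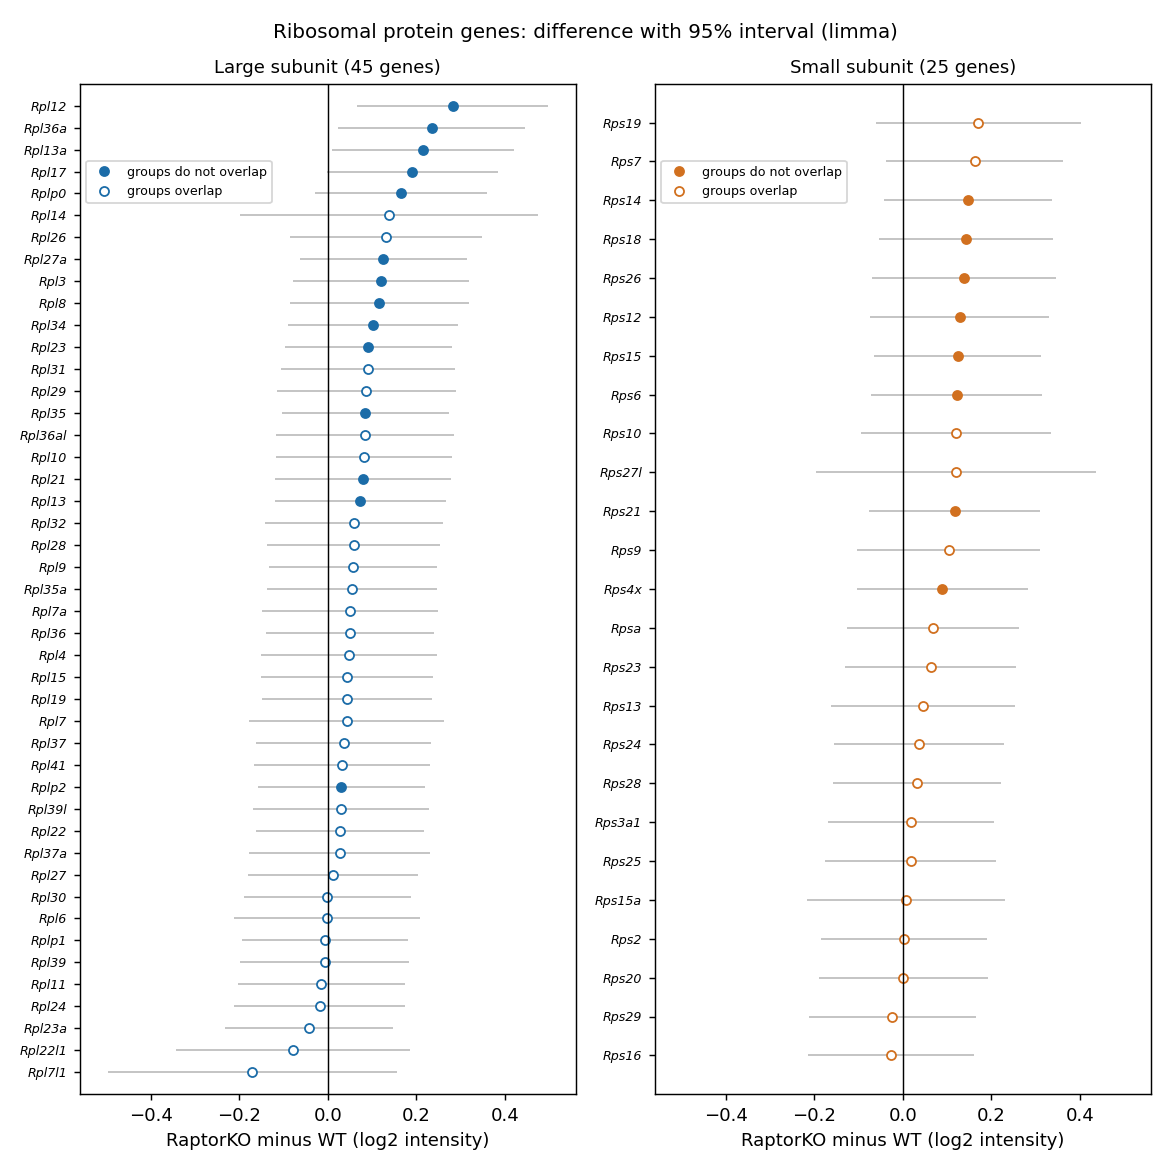
Difference in mean log2 intensity (RaptorKO minus WT, x axis) with its 95% limma interval for each of the 45 large subunit genes (left) and 25 small subunit genes (right) tested, 4 arrays in each group. Filled points mark the 22 genes whose groups did not overlap, all to the right of 0; most intervals include 0.

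When limma's prior was allowed to follow signal intensity, the median prior SD of the members was 0.06, and 7 members passed the adjusted test (10%), against 3.24% of all genes. All 7 were higher in RaptorKO: Rpl17 (adjusted p = 0.00935), Rpl12 (0.0127), Rpl36a (0.0255), Rplp0 (0.0283), Rps14 (0.0349), Rpl13a (0.0415) and Rps15 (0.0444). At an unadjusted p under 0.05 this fit counted 26 members (37.1%), against 14% of all genes. With 1 array left out at a time the same fit called 2 to 5 of 70 members and 216 to 441 of all 11413 genes. Without WT 2 it called 2 members and 351 genes, so the share of members was no larger than that of all genes. Without WT 4 it called 2 members and 216 genes. It called 3 members without RaptorKO 1, RaptorKO 2 or RaptorKO 4, where 276, 441 and 281 genes were called. Rpl12 and Rpl17 were called in each of these 8 fits. With RaptorKO 2 and WT 2 both left out, the trend fit called 3 members (4.29%), near the 4.21% of all genes. Rpl12 (limma adjusted p = 0.0387) and Rpl17 (0.0335) were among these 3.

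The stalk of the large subunit, which recruits elongation factors to the ribosome, is built from Rplp0, Rplp1 and Rplp2, and Rpl12 sits at its base. Rpl12 read 12.14, 12.23, 12.15 and 12.07 in RaptorKO 1 to 4, against 11.88, 11.71, 12.01 and 11.86 in WT 1 to 4. All 4 RaptorKO arrays lay above the highest WT array, by a gap of 0.06. The means were 12.15 ± 0.06 in RaptorKO and 11.86 ± 0.12 in WT (SD, n = 4 each), a difference of 0.28 (SE 0.10, 95% interval 0.07 to 0.50, limma adjusted p = 0.216), or 1.22-fold.

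Rplp0, which anchors the stalk to ribosomal RNA, read 12.33, 12.36, 12.31 and 12.34 in RaptorKO, against 12.24, 12.14, 12.09 and 12.20 in WT. These groups did not overlap either, and the difference was 0.17 (SE 0.09, adjusted p = 0.481). The acidic stalk protein gene Rplp2 read 13.19, 13.25, 13.19 and 13.19 in RaptorKO and 13.16, 13.18, 13.18 and 13.19 in WT, a difference of 0.03 in which the groups were only just apart. For its partner Rplp1 the values were 12.60, 12.65, 12.60 and 12.61 in RaptorKO and 12.60, 12.63, 12.63 and 12.63 in WT. The Rplp1 groups overlapped, and the difference of -0.01 had a 95% interval of -0.19 to 0.18. Within the stalk, then, the differences of Rpl12 and Rplp0 were larger than those of the acidic pair; the differences between these genes were not tested.

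**Figure D2:**
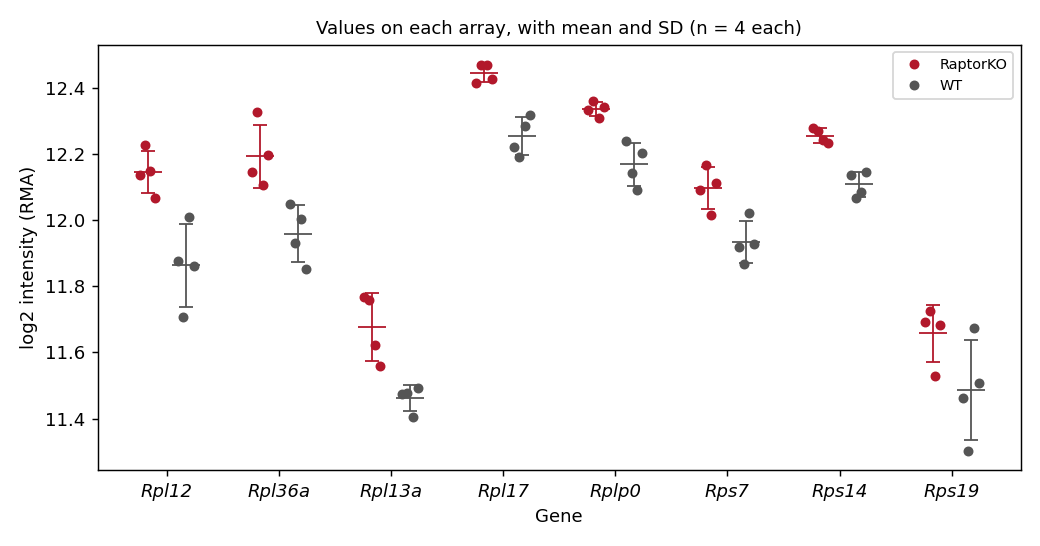
Log2 intensity (y axis) on each RaptorKO array (red) and each WT array (grey) for the 8 members with the smallest limma p, with the mean and SD of the 4 arrays of a group. Rps7 and Rps19 overlapped between the groups, and the other 6 did not.

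Rpl36a, a large subunit protein near the tRNA exit site, is encoded on the X chromosome. It read 12.15, 12.33, 12.11 and 12.20 in RaptorKO, against 12.05, 11.93, 12.003 and 11.85 in WT. The groups did not overlap, and the difference was 0.24 (SE 0.10, adjusted p = 0.315). Rpl36al, a copy of this gene on another chromosome, read 11.98, 12.01, 11.89 and 11.85 in RaptorKO and 11.84, 11.88, 11.76 and 11.91 in WT, with overlapping groups and a difference of 0.08. The other X-linked members differed by 0.09 (Rps4x, groups apart), 0.08 (Rpl10, a protein of the inter-subunit side that is added late in assembly) and -0.01 (Rpl39, at the exit tunnel), with a median of 0.09 over the 4.

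Rpl13a, known in human myeloid cells also as part of a complex that silences the translation of inflammatory mRNAs, read 11.77, 11.76, 11.62 and 11.56 in RaptorKO. In WT it read 11.47, 11.48, 11.40 and 11.49. All RaptorKO arrays lay above all WT arrays, RaptorKO 1 and 2 by more than RaptorKO 3 and 4, and the difference was 0.22 (SE 0.09, adjusted p = 0.353).

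Rpl17, which lines the tunnel through which the nascent chain leaves the ribosome, read 12.41, 12.47, 12.47 and 12.43 in RaptorKO and 12.22, 12.19, 12.28 and 12.32 in WT. Its gap between the groups, 0.10, was the widest among the 22 non-overlapping members, and its difference was 0.19 (SE 0.09, adjusted p = 0.389). The other proteins around the tunnel exit varied. Rpl35 differed by 0.09 with groups apart, Rpl31 by 0.09 and Rpl19 by 0.04 with overlap. Rpl23a, a docking site for the signal recognition particle, read 13.10, 13.12, 13.17 and 13.16 in RaptorKO and 13.16, 13.17, 13.17 and 13.22 in WT. Its groups overlapped and its difference was -0.04, with an interval of -0.23 to 0.15. Rpl11, which together with Rpl5 and a small ribosomal RNA binds the ubiquitin ligase Mdm2, differed by -0.01 (interval -0.20 to 0.17) on its brighter probe set. The value depended on the probe set: the dim second set of Rpl11 read 6.77, 6.84, 6.93 and 7.12 in RaptorKO and 6.61, 6.51, 6.39 and 6.56 in WT, with groups apart and a difference of 0.40 (adjusted p = 0.143 over all probe sets), and the mean of both sets gave 0.19.

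In the small subunit, Rps6 read 13.05, 13.09, 13.05 and 13.07 in RaptorKO, against 13.02, 12.88, 12.89 and 12.97 in WT. The RaptorKO arrays lay close together and above all WT arrays, of which WT 1 came nearest. The difference was 0.12 (SE 0.09, 95% interval -0.07 to 0.32, adjusted p = 0.651). Phosphorylation of the Rps6 protein is not seen by the array.

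Rps14, whose haploinsufficiency underlies a human macrocytic anaemia, read 12.28, 12.27, 12.24 and 12.23 in RaptorKO and 12.14, 12.07, 12.09 and 12.15 in WT. The groups did not overlap, and the difference was 0.15 (SE 0.09, adjusted p = 0.539). Rps19, the gene most often mutated in human Diamond-Blackfan anaemia, read 11.69, 11.73, 11.53 and 11.68 in RaptorKO and 11.46, 11.30, 11.67 and 11.51 in WT. Here WT 3 lay within the RaptorKO range, and the difference of 0.17 (SE 0.11, adjusted p = 0.564) was the largest in the small subunit. Rps7, a small subunit protein that can also bind Mdm2, read 12.09, 12.17, 12.01 and 12.11 in RaptorKO and 11.92, 11.87, 12.02 and 11.93 in WT. WT 3 overlapped the lowest RaptorKO array, and the difference was 0.16 (SE 0.09, adjusted p = 0.511). The remaining small subunit genes whose groups were apart were Rps4x, Rps12, Rps15, Rps18, Rps21 and Rps26.

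Some small subunit genes differed little. Rps2, at the entry of the mRNA channel, read 12.47, 12.46, 12.42 and 12.45 in RaptorKO and 12.42, 12.45, 12.45 and 12.47 in WT, a difference of 0.0027 with an interval of -0.19 to 0.19. Rpsa, known also as the precursor of the laminin receptor, differed by 0.07 with overlapping groups. The lowest value in the small subunit was that of Rps16, with a difference of -0.03 (interval -0.21 to 0.16). The other large subunit genes whose groups were apart were Rpl3, Rpl8, Rpl13, Rpl21, Rpl23, Rpl27a and Rpl34, besides Rpl12, Rpl13a, Rpl17, Rpl35, Rpl36a, Rplp0 and Rplp2 above. Over the 22 members with groups apart the differences ran from 0.03 to 0.28, and the gap between the groups exceeded 0.05 in 9.

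The paralogs included the 2 lowest differences of the family, those of Rpl7l1 and Rpl22l1. The 5 tested had a median difference of 0.03, 3 were positive, and in 0 were the groups apart; without them the family had a median of 0.06 and 56 of 65 positive differences. Rpl7l1, a Rpl7 relative with a role in large subunit assembly, read 6.49, 6.84, 6.23 and 6.26 in RaptorKO and 6.76, 6.34, 6.68 and 6.71 in WT. RaptorKO 2 was its highest array and the other 3 RaptorKO arrays lay below WT 1, WT 3 and WT 4. The difference was -0.17 (SE 0.15, adjusted p = 0.730), the lowest in the family. Other tested probe sets of Rpl7l1 gave differences of -0.14 and 0.06.

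Rpl22l1, the paralog of Rpl22, which is required for the development of alpha-beta T cells in mice, read 10.53, 10.88, 10.43 and 10.62 in RaptorKO and 10.66, 10.52, 10.86 and 10.73 in WT. The groups overlapped and the difference was -0.08. For Rpl22 itself the difference was 0.03. Rps27l, the paralog of Rps27, differed by 0.12 with overlapping groups, and Rps27 was not analysed here. Rpl39l, known from the mouse testis, differed by 0.03. Of the other parents, Rpl7 differed by 0.04 with overlapping groups and Rpl3 by 0.12 with groups apart.

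The large and the small subunit were also set against each other. The median difference was 0.05 over the 45 large subunit genes and 0.09 over the 25 small subunit genes. Each gene was centred on its mean over the 8 arrays. The median deviation of the large subunit minus that of the small subunit was then -0.03, 0.01, 0.01 and -0.01 in RaptorKO 1 to 4, against 0.01, -0.04, 0.02 and 0.03 in WT 1 to 4. RaptorKO and WT arrays overlapped in this measure, with WT 2 and RaptorKO 1 the lowest.

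The deviations were uneven across arrays. The median deviation over the 70 members was 0.03, 0.08, 0.01 and 0.01 in RaptorKO 1 to 4, against -0.02, -0.07, -0.0015 and -0.02 in WT 1 to 4. All RaptorKO arrays were above all WT arrays, with RaptorKO 2 the highest and WT 2 the lowest. The SD of this array median within a group was 0.03. Over all genes tested the same median was -0.0023, 0.05, -0.05 and -0.01 in RaptorKO and 0.02, -0.02, 0.02 and 0.01 in WT, so RaptorKO 2 was also the highest array there. RaptorKO 2 gave the highest value of 43 members and WT 2 the lowest of 32. With both of these arrays left out, a choice made after seeing the data, the median difference of the family was 0.04 with 51 of 70 positive (72.9%), against 44.3% of all genes. The 3 remaining RaptorKO arrays lay above the 3 WT arrays in 23 members (32.9%), against 8.07% of all genes. The fit with the intensity trend then called 3 members (4.29%), near the 4.21% of all genes.

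**Figure D3:**
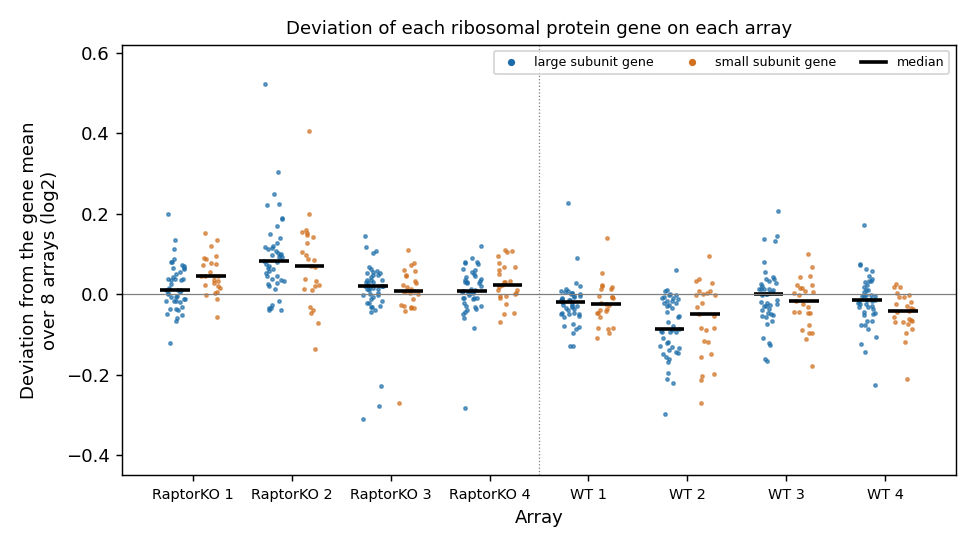
Deviation of each member from its own mean over the 8 arrays (y axis, log2 units) on each array (x axis, RaptorKO left of WT), with large subunit genes in blue, small subunit genes in orange and their medians as black bars. The large subunit median is highest on RaptorKO 2 (0.08) and lowest on WT 2 (-0.09).

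**Figure D4:**
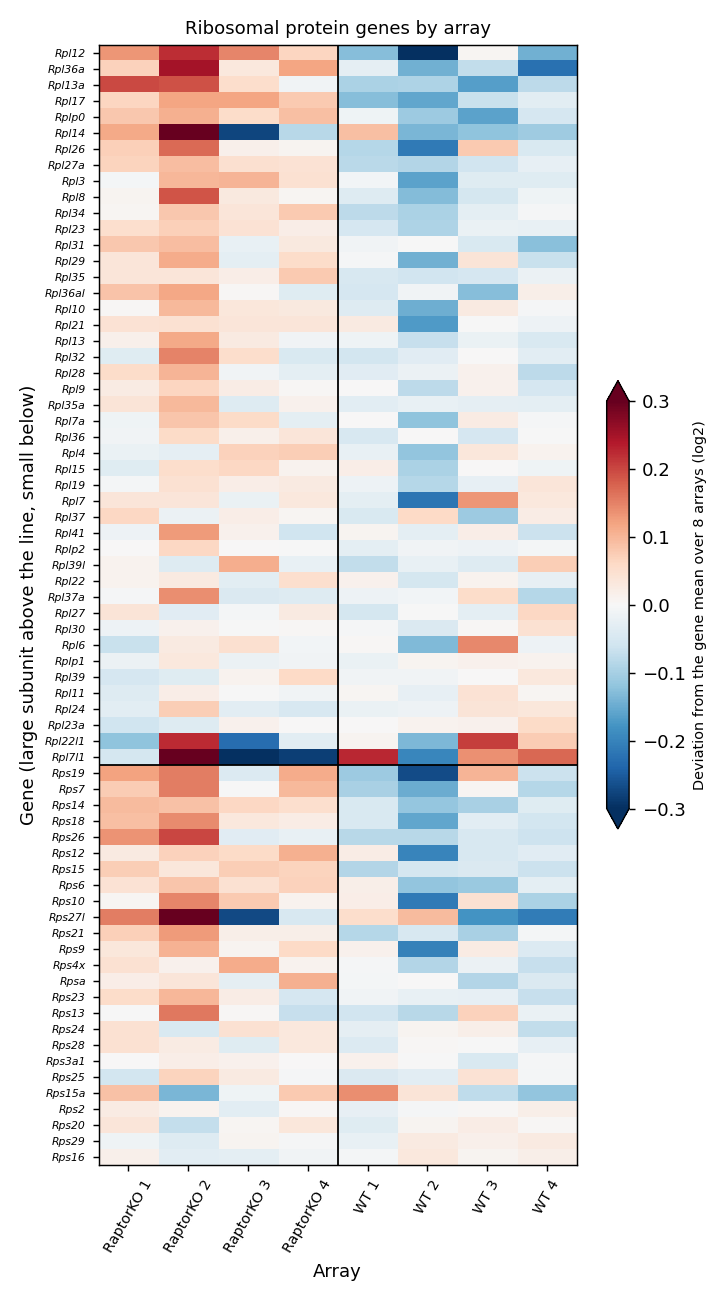
Deviation of each of the 70 members (rows, large subunit above the line and small subunit below) from its mean over 8 arrays, in log2 units from blue (lower) to red (higher), with RaptorKO arrays left of WT arrays. RaptorKO 2 is the reddest column and WT 2 the bluest, and colours end at -0.3 and 0.3.

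Within replicates 1 and 2 the median difference of the members was 0.10 with 64 of 70 positive, and within replicates 3 and 4 it was 0.03 with 51 positive. Over all genes tested these medians were 0.02 and -0.04, so the members lay above the general median in both sets. A limma test of whether the genotype difference depended on the set called 0 members and 0% of all genes at an adjusted p of 0.05. At an unadjusted p under 0.05 it counted 1 member (1.43%), against 11.4% of all genes. That member was Rpl7l1, whose difference was 0.11 in replicates 1 and 2 and -0.45 in replicates 3 and 4 (interaction -0.56, adjusted p = 0.431). Rpl22l1 differed by 0.11 in replicates 1 and 2 and by -0.27 in replicates 3 and 4.

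The members were read by bright probe sets with little spread. Their mean log2 intensity ran from 5.23 to 13.34, and 58 of the 82 genes with a mean of 12 or more were members. The other 24 genes at this brightness had a median within-group SD of 0.05, like the members, but a median difference of -0.13, with 6 positive and 18 negative. In 13 of the 24 every RaptorKO array lay below every WT array and in 1 above; 1 was called, and it was lower. Among the members with a mean of 12 or more, 49 of 58 differences were positive and the median was 0.06. Between 10 and 12, 335 other genes had a median difference of -0.04, with 31 apart higher and 66 apart lower. Among control probe sets of like brightness, that for the 3′ end of Actb read 12.20 to 12.29 in RaptorKO and 12.47 to 12.56 in WT. The set for its 5′ end read 12.88 to 12.91 in RaptorKO and 13.09 to 13.17 in WT. The set for its middle read 12.33 to 12.42 in RaptorKO and 12.63 to 12.66 in WT. The set for the 3′ end of the small subunit ribosomal RNA read 13.60 to 13.65 in RaptorKO and 13.66 to 13.71 in WT, while the groups overlapped in the sets for its 5′ end and middle. The 3′ minus 5′ difference of the Gapdh controls, a sign of RNA quality, was 1.09 to 1.28 in RaptorKO and 1.11 to 1.33 in WT, so the groups overlapped. For the Actb controls it was -0.63, -0.64, -0.65 and -0.69 in RaptorKO against -0.54, -0.64, -0.57 and -0.61 in WT, lower in RaptorKO with only WT 2 reaching the RaptorKO range. The part of RNA quality in the results was not tested.

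**Figure D5:**
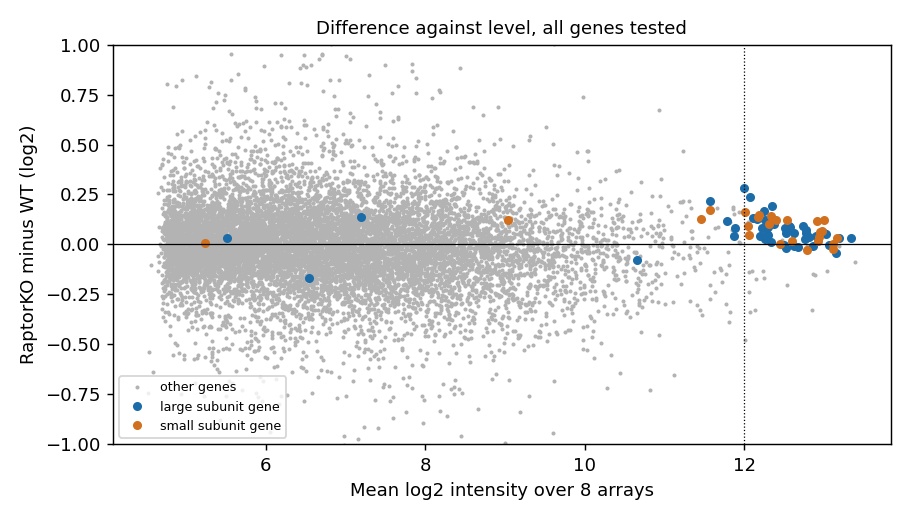
Difference RaptorKO minus WT (y axis, log2) against the mean log2 intensity over 8 arrays (x axis) for all genes tested and for the members of each subunit; the dotted line marks a mean of 12, and 55 genes beyond 1 in either direction are not drawn. The members cluster at the bright end, mostly above 0, where the other bright genes lie mostly below 0.

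Bright probe sets of the same gene gave similar differences, and dim ones often larger ones. Of 34 members with more than 1 probe set, 22 had at least 2 with a mean of 10 or more, and in 17 of these all such sets had the same sign. The median range of the difference within such a gene was 0.03, and the widest was 0.10 (Rpl37). Over all tested probe sets of the 34 members the median range was 0.07 and the widest 0.56. The 27 tested probe sets with a mean under 10 that were not chosen to represent their gene had a median difference of 0.20, 25 of them positive. In 6 members the range exceeded 0.3. The chosen and the most different set gave 0.0016 and 0.56 for Rps20, 0.09 and 0.59 for Rpl23, and -0.01 and 0.40 for Rpl11. They gave 0.07 and 0.47 for Rpsa, 0.03 and 0.41 for Rpl22, and 0.08 and 0.39 for Rpl21. In each of these 6 the larger value came from a dim set. Tested separately, 128 probe sets of the family passed the filter, 110 of them with a positive difference. None passed the adjusted test in limma, where 1.12% of 27404 probe sets did, and 10 had an unadjusted p under 0.05 (7.81%), against 11.7% of all probe sets. The family has many processed pseudogenes, and 22 tested members were read by a probe set whose suffix marks probes shared between transcripts, so their signal may hold other sequences. Rps15a (mean 5.23) and Rpl14 (mean 7.19) were read here only by dim probe sets, with differences of 0.01 and 0.14 and overlapping groups.

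Members with and without a long pyrimidine run near the start were set side by side. The 43 tested members with a run of 8 or more had a median difference of 0.08, from -0.08 to 0.28, and the groups were apart in 14. The 13 tested members without such a run had a median of 0.03, from -0.17 to 0.17, and the groups were apart in 3. Every RaptorKO array read above every WT array in 3.73% of all genes tested and in 31.4% of the 70 members. The difference between members with and without a run was not tested. Among the windows printed above, Rpl22l1 has a run of 10 and a negative difference, while Rplp0 has none over 5 in its window and a positive one.

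Genes outside the family that share the TOP motif or act on it were listed for comparison. Of 21 other TOP mRNAs, among them translation factors, 18 were tested. Of these, 16 were positive, against 47.6% of all genes tested, and the median difference was 0.07. The adjusted test in limma was passed by 0, and 2 had an unadjusted p under 0.05, against 13% of all genes. Within these TOP mRNAs the smallest p was that of Nap1l1, a histone chaperone, which read 10.41, 10.48, 10.38 and 10.41 in RaptorKO against 10.09, 10.03, 10.09 and 10.16 in WT. The groups were apart, and the difference was 0.33 (SE 0.09, adjusted p = 0.0949). Second among the TOP mRNAs came Vim, the intermediate filament protein vimentin, with a difference of -0.28 (SE 0.12, adjusted p = 0.321) and overlapping groups. Eef1b2, a nucleotide exchange factor of elongation, and Hnrnpa1, a splicing regulator, also had RaptorKO arrays that all lay above WT.

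Of 10 regulators of TOP mRNAs and of Rps6, 9 were tested, 7 were positive and 0 passed the adjusted test (2 at an unadjusted p under 0.05), with a median difference of 0.11. Over all genes tested, 47.6% were positive and 13% had an unadjusted p under 0.05 in limma. Larp1 read 9.42, 9.68, 9.36 and 9.36 in RaptorKO against 9.28, 9.03, 9.28 and 9.21 in WT, with groups apart and a difference of 0.25 (SE 0.11, adjusted p = 0.347). Larp4, which protects mRNA poly(A) tails, read 8.63, 8.78, 8.37 and 8.49 in RaptorKO against 8.34, 8.29, 8.25 and 8.08 in WT, with groups apart and a difference of 0.33 (SE 0.11, adjusted p = 0.213). Of 8 dedicated chaperones and escort factors of ribosomal proteins, 7 were tested, 5 were positive, and 0 passed the adjusted test or an unadjusted p under 0.05, with a median of 0.10. Pdcd2l, with a difference of 0.28, and Pdcd2, a chaperone of Rps2, with 0.23, had the smallest p in that list, with adjusted p-values of 0.388 and 0.485. Over these 3 lists together, 3 of 34 tested genes passed with the intensity trend, against 3.24% of all genes. With any 1 array left out, 1 or 2 of the 34 passed, against 216 to 441 of all 11413 genes.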

How the data were processed

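Expression was measured in 8 sorted regulatory T cell samples, 4 RaptorKO and 4 WT, grouped by their titles. The deposited values are log2 intensities per probe set, and RMA is the tool listed in the submitters' processing notes, without a version. RMA as usually run sets all arrays to 1 distribution, so a change in total mRNA per cell would not be seen. Gene names came from the platform annotation and were updated through Entrez identifiers; 28689 of 28898 probe sets with a single gene matched RefSeq, and all 71 members did. The test covered 1 probe set per gene, kept if it exceeded the 40th percentile of the array on 4 or more arrays. The genotypes were fitted in limma (version 3.58.1, under R 4.3.3) by lmFit and eBayes without covariates, with Benjamini-Hochberg adjustment over 11413 genes and a threshold of 0.05. A difference is the RaptorKO mean minus the WT mean in log2 units, and SE is its standard error. The number of arrays limits the precision. The code was tested on simulated data.

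The members, the other gene lists, the marker lists and the alternatives were chosen with earlier results of these data known, so counts over them are descriptions. Named genes were Rptor, the 8 members with the smallest limma p, the 3 largest differences in each direction, all members whose groups did not overlap, and members picked for their role, paralogy or X linkage. From each other list the 2 with the smallest p were named; other genes in the text were named after their values were seen. The marker lists not described in the report averaged 8.69 to 9.05 in RaptorKO and 8.85 to 8.94 in WT (conventional CD4 T cells), 6.84 to 7.25 in RaptorKO and 6.04 to 7.17 in WT (erythroid cells), and 4.40 to 4.62 in RaptorKO and 4.21 to 4.47 in WT (platelets). Alternatives covered the variance model, the filter, the scaling, the choice of probe set, the replicate sets and each array left out. Python 3.11.15 with matplotlib 3.10.9 drew the figures. Promoter windows were taken from RefSeq, build GRCm38.p6.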

Additional observations from a re-analysis of the deposited data

Results flagged for a closer look

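An array far from the other 3 of its group was looked for in 64 groups of 4 values, made of the named members and the subunit medians, and 4 were found; chance alone marks about 1 in 20 groups. In Rplp1, RaptorKO 2 read 12.652, above the other RaptorKO arrays. In Rplp2, RaptorKO 2 read 13.253, likewise above the others. In Rpl7, RaptorKO 3 read 11.857, below the other 3, which lay close together. The median deviation of the large subunit was 0.084 in RaptorKO 2, above the other RaptorKO arrays. RaptorKO 2 was also the highest array over all genes tested, with a median deviation of 0.05; the part of this in the values above was not tested.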

How the results depend on the processing

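The median difference of the family and of each subunit stayed positive under every alternative run. It was 0.0475 to 0.0748 for the family, 0.039 to 0.067 for the large subunit and 0.068 to 0.1032 for the small subunit with 1 array left out at a time. Within replicates 1 and 2 it was 0.0985, 0.0963 and 0.1153 for the family, the large and the small subunit, and within replicates 3 and 4 it was 0.0308, 0.0212 and 0.0438. For the small subunit, the mean of all probe sets gave 0.1255, leaving out probe sets with shared probes 0.1109, quantile normalization 0.0653, and leaving out RaptorKO 2 and WT 2 together 0.0681. Quantile normalization lowered the family median from 0.0591 to 0.044, with 54 of 70 positive instead of 59. The large subunit median fell from 0.0548 to 0.0299, with 35 of 45 positive. In the small subunit 19 of 25 were then positive instead of 23. The number of called members was 0 under every alternative without an intensity trend. With the trend it was 7, also 7 with a term for the replicate sets, 2 to 5 with 1 array left out, and 3 without RaptorKO 2 and WT 2. Of the 34 listed genes outside the family, 1 was called after quantile normalization, 3 with the trend, 3 with trend and set term, 1 to 2 with trend and 1 array left out, and 2 with trend without RaptorKO 2 and WT 2. Over all genes, 224 calls became 9 within replicates 1 and 2, 85 within replicates 3 and 4, 370 with the trend (147 higher, 223 lower) 489 with trend and set term, and 481 with trend without RaptorKO 2 and WT 2; with 1 array left out they were 101 to 257, and 216 to 441 with the trend (351 without WT 2). Smaller sets of arrays leave fewer degrees of freedom; other causes were not tested.

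Same-numbered arrays of the genotypes correlated at 0.157, -0.153, 0.106 and 0.026 in their deviations, so the numbers were not taken as pairs. With a replicate block, 0 members and 175 genes were called (90 higher, 85 lower), and the family median was 0.0591. Changes of sign were looked for in 29 named members, picked for a small p, a large difference, their role, paralogy or X linkage. No called difference changed sign among these 29, and 9 members had an uncalled sign change in some alternative. Members named only because their groups did not overlap, such as Rps15, were not in this check. The trend fits with 1 array left out or with the set term, and the fits without RaptorKO 2 and WT 2, were chosen after seeing the data. Most members had a standard error of about 0.09 without the trend, so differences near 0.1 could not be resolved for single members.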
